A study of Mus musculus with 8 samples.

Results

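The genes described here are 9 target genes of PPAR-alpha: Pdk4, Mlycd, Acacb, Ucp3, Ucp2, Acot1, Acot2, Angptl4 and Plin5. They were chosen by name, with earlier results of these data known, as the rows of the count tables that carry these symbols. They are 9 of the 32285 genes in the tables. PPAR-alpha is a nuclear receptor that is activated by fatty acids, binds DNA together with a retinoid X receptor, and in heart muscle keeps up the genes for taking in and burning fat. Its targets set the choice of fuel at several steps, since some of them hold back the use of glucose, some set how much fat enters the mitochondria, and others store or release fat or dispose of surplus acyl groups. The question was in which cell types of the heart these genes are counted and whether their levels differ when Tafazzin is missing.

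Nuclei of the whole hearts of 8 male mice, 4 WT and 4 Taz-KO, all 9 weeks old, had been sequenced as 1 library per mouse. Tafazzin is the acyltransferase that remodels cardiolipin of the inner mitochondrial membrane, and loss of it causes Barth syndrome in humans. The sources used here give neither the strain nor the tissues in which the knockout mouse lacks Tafazzin, and no treatment. Mice are named by the numbers in the labels, which are WT replicates 4686, 4909, 5355 and 5356 and Taz-KO replicates 4685, 4910, 5300 and 5301.

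Between 20025456 and 348080773 UMIs (counted RNA molecules) were found per mouse, and 151264 nuclei were kept after filters and the removal of doublets. This is more nuclei than the study itself kept, and 41026 of them fell in clusters that were left unnamed. Taz-KO replicates 4685 and 5301 stood apart, with 3492 and 5571 barcodes against 21190 or more in every other library, so that results are also given without them. Any pair of libraries had between 2 and 294 barcodes in common. Nuclei were clustered and named from marker genes, with the 9 genes left out of the clustering, which gave 26820 cardiomyocyte, 38171 fibroblast, 20775 endothelial and 12101 macrophage nuclei. Levels are given as CPM, that is as UMIs of the gene over all UMIs of a cell type in a mouse, brought to the same total for every mouse. UMIs of the mitochondrial genome, 1.57% to 23.7% of a library, were left out of these totals. Ttn, a sarcomere gene of heart muscle, was at a mean of 24188 CPM in cardiomyocytes and still at 3092 CPM in fibroblasts, and how much of the latter was free RNA was not tested. Taz itself was at 53.6, 49.8, 54.3 and 48.7 CPM in cardiomyocytes of the 4 WT hearts and at 43.8, 38.2, 28.1 and 31.4 CPM in those of the 4 Taz-KO mice. The groups did not overlap, and Taz RNA was still counted in every Taz-KO mouse.

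In cardiomyocytes, 3 of the 9 genes were lower in Taz-KO mice, namely Mlycd, Acacb and Ucp3, at an adjusted p below 0.05 in the quasi-likelihood test of edgeR, adjusted by Benjamini-Hochberg over all 18226 genes tested. No member was called higher. Of all genes tested, 15.9% were called, 6.87% as lower and 8.99% as higher in Taz-KO mice. The fitted log2 fold change was negative for 8 of the 9 genes, with a median of −1.13 against −0.01 over all genes tested. These signs are not separate evidence, since the genes were counted in the same mice. WT replicates 5355 and 5356 were above both other WT mice for Pdk4, Ucp3, Mlycd, Acot1 and Angptl4, and narrowly for Acacb. This was not so for Ucp2, Plin5 and Acot2. The fit was not run without both of these WT mice. All 9 genes passed the filter on low counts in cardiomyocytes. Levels of a cell type are sums over its nuclei, so fewer nuclei that use a gene and less RNA of it per nucleus cannot be told apart from them. The p-values set the genotype difference against the spread between these mice, which edgeR estimates in part from other genes.

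The promoter sequences of the genes that were called, and of Acot2, which had the only positive fold change, are shown since PPAR-alpha binds a repeat of the hexamer AGGTCA. They are the 250 bases before the RefSeq start of each gene on GRCm38.p6, written 5′ to 3′ on the strand of the gene, and the capitals mark the stretch most like AGGTCANAGGTCA on either strand. The windows are chr7:100472741-100472990 for Ucp3, chr8:119394644-119394893 for Mlycd, chr5:114165268-114165517 for Acacb and chr12:83987611-83987860 for Acot2, all on the plus strand.
Ucp3: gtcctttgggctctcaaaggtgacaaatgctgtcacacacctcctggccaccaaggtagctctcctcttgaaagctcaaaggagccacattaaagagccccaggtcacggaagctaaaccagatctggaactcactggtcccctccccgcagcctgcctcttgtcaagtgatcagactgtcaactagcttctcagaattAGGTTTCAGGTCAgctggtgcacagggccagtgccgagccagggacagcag
Mlycd: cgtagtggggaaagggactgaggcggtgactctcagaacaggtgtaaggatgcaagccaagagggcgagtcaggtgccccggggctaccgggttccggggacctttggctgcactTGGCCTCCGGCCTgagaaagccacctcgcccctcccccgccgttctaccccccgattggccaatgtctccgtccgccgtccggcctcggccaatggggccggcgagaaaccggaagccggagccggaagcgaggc
Acacb: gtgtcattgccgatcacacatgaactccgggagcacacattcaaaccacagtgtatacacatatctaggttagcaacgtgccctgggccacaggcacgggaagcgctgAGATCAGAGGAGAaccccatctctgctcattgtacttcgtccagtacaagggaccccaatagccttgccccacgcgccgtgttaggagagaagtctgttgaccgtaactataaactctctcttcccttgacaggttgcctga
Acot2: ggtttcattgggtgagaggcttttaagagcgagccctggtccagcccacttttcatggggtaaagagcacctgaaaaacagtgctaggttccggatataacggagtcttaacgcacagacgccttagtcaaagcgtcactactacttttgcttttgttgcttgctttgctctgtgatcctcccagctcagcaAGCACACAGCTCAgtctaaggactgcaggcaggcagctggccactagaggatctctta
The match in Ucp3 lies 51 to 39 bases before the start, on the strand of the gene, and differs from the motif at 2 positions. Of all 32851 RefSeq promoters of this length, 3.24% hold a match with at most 2 differences. The best matches in Acacb, Mlycd and Acot2 differ at 3 positions, as 21.3% of all promoters do or better, and that in Mlycd is on the opposite strand. Pdk4, Ucp2 and Acot1 have no match with fewer than 4 differences, Plin5 has a match with 3, and Angptl4 was not analysed here. A match is a description of the letters and not a site. The RefSeq start of Acacb lies 18983 bases after the start of the gene in GENCODE vM21, so the window shown is inside the gene as GENCODE draws it.

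**Figure D1:**
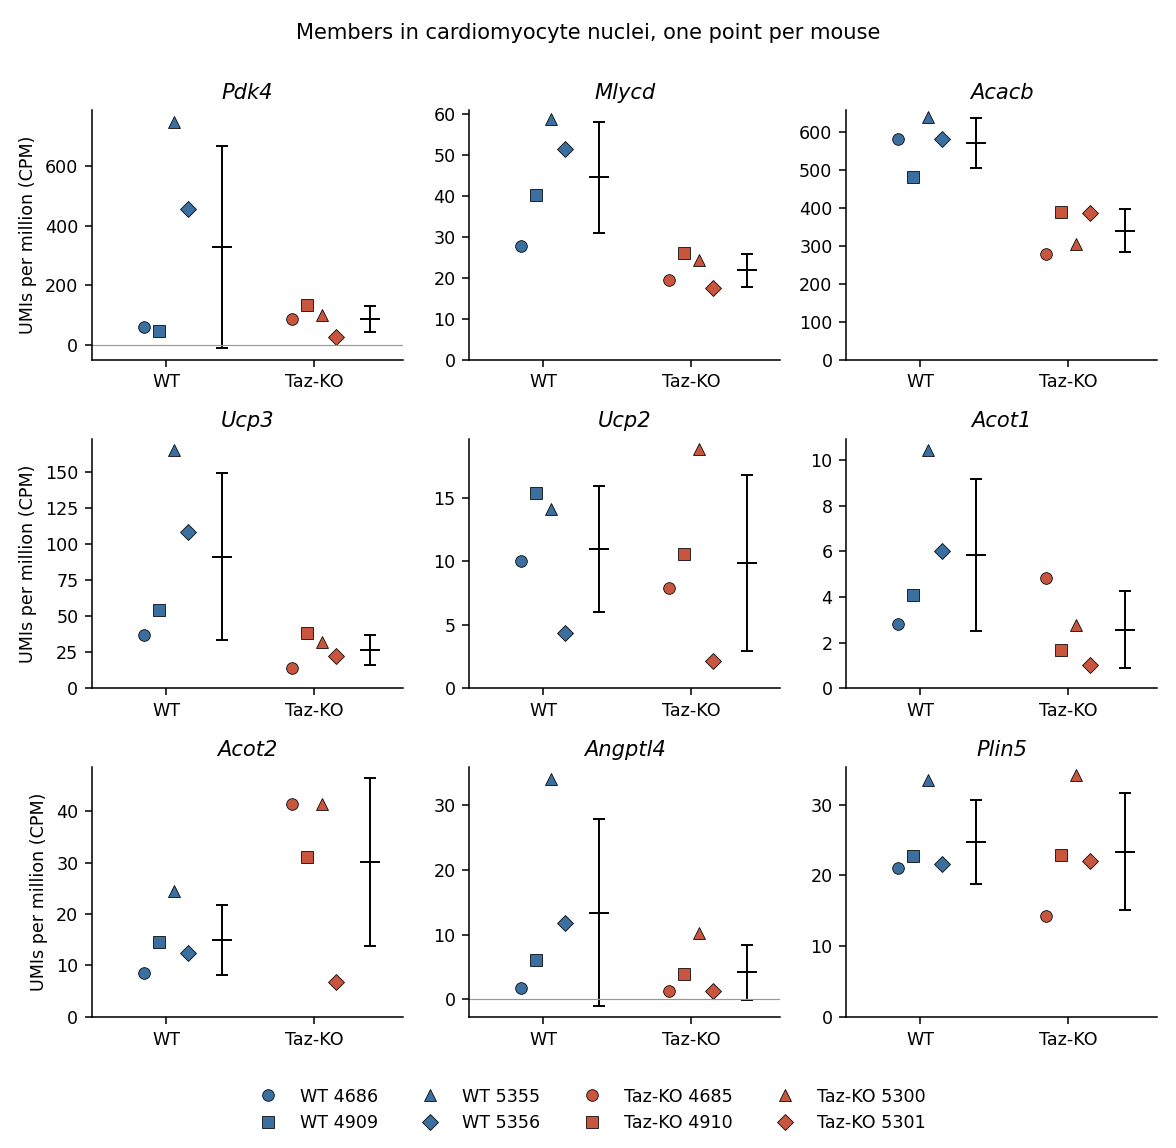
Level of each of the 9 genes in cardiomyocyte nuclei. Each panel is a gene, the y axis is CPM on a linear axis, each point is a mouse (blue, WT; red, Taz-KO; the shape marks the mouse), and the dash with bars is the mean with the SD of 4 mice. All 4 Taz-KO points lie below all 4 WT points for Mlycd and Acacb, while for Pdk4 WT replicates 5355 and 5356 lie far above the other 6 mice.

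Pdk4 (chr6:5483351-5496309, GRCm38, minus strand) encodes the kinase that shuts off the pyruvate dehydrogenase complex and so keeps glucose carbon out of the citric acid cycle. In cardiomyocytes of WT replicates 4686, 4909, 5355 and 5356 it was counted at 59.2, 47.2, 751 and 456 CPM. In Taz-KO replicates 4685, 4910, 5300 and 5301 it was at 87.8, 133, 99.3 and 28.3 CPM. The WT mice thus spread over a wider range than the genotypes differed, and 3 of the 4 Taz-KO mice were above the lower pair of WT mice. The means were 328 ± 340 CPM in WT and 87.2 ± 43.8 CPM in Taz-KO mice (SD, n = 4 each), and the log2 fold change of −2.06 (SE 0.88) did not pass the test, with an adjusted p of 0.159. It passed in none of 20 alternatives, in which the adjusted p ran from 0.106 to 0.376.

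Mlycd (chr8:119394878-119411102, plus strand) encodes malonyl-CoA decarboxylase, which removes malonyl-CoA, the inhibitor of fatty acid entry into mitochondria. It was at 27.8, 40.2, 58.9 and 51.4 CPM in cardiomyocytes of the WT hearts and at 19.6, 26.1, 24.4 and 17.4 CPM in those of the Taz-KO mice, in the order of replicates above. The lowest WT mouse was above the highest Taz-KO mouse. The level was 2.19 times lower in Taz-KO mice (44.6 ± 13.6 against 21.9 ± 4.04 CPM, SD, n = 4 each), a log2 fold change of −1.13 (SE 0.23) with an adjusted p of 0.00737. The call held in 19 of 20 alternatives and was lost without both Taz-KO libraries with few barcodes, where the log2 fold change was −1.02 with an adjusted p of 0.0655.

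Acacb (chr5:114146535-114250761, plus strand) encodes acetyl-CoA carboxylase 2, the enzyme on the outer mitochondrial membrane that makes the malonyl-CoA that Mlycd removes. It was at 580, 480, 639 and 581 CPM in cardiomyocytes of the WT hearts and at 279, 388, 305 and 386 CPM in those of the Taz-KO mice. All Taz-KO mice were below all WT mice. The means were 570 ± 65.8 and 340 ± 55.9 CPM (SD, n = 4 each), the level was 1.78 times lower, and the log2 fold change was −0.83 (SE 0.22) with an adjusted p of 0.0269. Acacb, whose product makes malonyl-CoA, and Mlycd, whose product removes it, were thus both lower. Acaca, another acetyl-CoA carboxylase gene, had means of 47.1 CPM in WT and 63.6 CPM in Taz-KO cardiomyocytes. Its log2 fold change was 0.33 (SE 0.19, adjusted p = 0.285 in edgeR's test), and it is named after its value was seen. The Acacb call was lost without Taz-KO replicates 4685 or 5300 or WT replicates 4686, 5355 or 5356, with adjusted p of 0.0721, 0.0541, 0.0578, 0.0557 and 0.0553, and the log2 fold change stayed between −0.97 and −0.71 in all 20 alternatives. Gm13784 overlaps Acacb on the opposite strand.

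Mlycd and Acacb were the members for which the groups did not overlap in cardiomyocytes, and 7.54% of all genes tested had every Taz-KO mouse below every WT mouse.

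Ucp3 (chr7:100472990-100486432, plus strand) encodes a mitochondrial inner membrane carrier of skeletal and heart muscle and brown fat, whose RNA follows the supply of fatty acids. It was at 36.9, 54.3, 165 and 109 CPM in cardiomyocytes of the WT hearts and at 14.3, 38.1, 32 and 22.6 CPM in those of the Taz-KO mice. WT replicate 4686, at 36.9 CPM, was below Taz-KO replicate 4910, at 38.1 CPM, and all other WT mice were above all Taz-KO mice. The means were 91.3 ± 58.0 and 26.7 ± 10.5 CPM (SD, n = 4 each), and the level was 3.64 times lower, a log2 fold change of −1.86 (SE 0.49) with an adjusted p of 0.0332. The call rested on a few mice: without Taz-KO replicates 4685 or 5300 or WT replicates 5355 or 5356, the adjusted p was 0.0771, 0.0859, 0.0730 and 0.0664. The log2 fold change lay between −2.13 and −1.48 in all 20 alternatives, of which 11 kept the call. Gm10603 overlaps Ucp3 on the opposite strand.

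Ucp2 (chr7:100493337-100502020, plus strand) encodes a related carrier that is widely used by immune cells, and its gene starts 6904 bases after the end of Ucp3. It was at 10.0, 15.4, 14.1 and 4.39 CPM in cardiomyocytes of the WT hearts and at 7.89, 10.6, 18.8 and 2.12 CPM in those of the Taz-KO mice. The groups overlapped over nearly their whole range, and the log2 fold change was −0.25 (SE 0.50, adjusted p = 0.797). The neighbouring genes thus had different estimates in the same nuclei, but their difference was not tested. Dnajb13 overlaps Ucp2 on the opposite strand.

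Acot1 and Acot2 encode acyl-CoA thioesterases that split acyl-CoA into fatty acid and CoA, in the cytosol for Acot1 and in mitochondria for Acot2. Their genes are neighbours of the same family (chr12:84009490-84018371 and chr12:83987861-83993873, plus strand, 15616 bases apart). How alike their sequences are, and how this bears on the counts of each gene, was not tested. Acot1 was at 2.83, 4.07, 10.4 and 6.02 CPM in cardiomyocytes of the WT hearts and at 4.83, 1.67, 2.76 and 1.01 CPM in those of the Taz-KO mice. Its log2 fold change was −1.46 (SE 0.48, adjusted p = 0.0632), and Taz-KO replicate 4685 lay among the WT mice. The call appeared without that mouse (adjusted p = 0.0338), without WT replicate 4686 (0.0348) and with DESeq2 (0.0132).

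Acot2 was the only member with a positive log2 fold change in cardiomyocytes. The WT hearts gave 8.58, 14.6, 24.5 and 12.3 CPM, and the Taz-KO hearts gave 41.5, 31.1, 41.3 and 6.70 CPM. Taz-KO replicates 4685, 4910 and 5300 were above all WT mice and Taz-KO replicate 5301 was below them all. The log2 fold change of 0.86 (SE 0.47) did not pass the test with all mice (adjusted p = 0.271), and without Taz-KO replicate 5301 it was 1.18 with an adjusted p of 0.0172. With the UMIs of Acot1 and Acot2 summed, the log2 fold change was 0.50 (SE 0.47, adjusted p = 0.546).

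Angptl4 (chr17:33773750-33781830, minus strand) encodes a secreted inhibitor of lipoprotein lipase, and Plin5 (chr17:56111601-56117596, minus strand) a coat protein that holds lipid droplets to mitochondria. Angptl4 was at 1.70, 6.05, 34.1 and 11.8 CPM in cardiomyocytes of the WT hearts and at 1.27, 3.84, 10.3 and 1.34 CPM in those of the Taz-KO mice. The groups overlapped, and the log2 fold change was −1.71 (SE 0.87, adjusted p = 0.235). Plin5 was at 21.0, 22.8, 33.5 and 21.5 CPM in WT hearts and 14.3, 22.9, 34.3 and 22.0 CPM in Taz-KO hearts, with the highest mouse of each genotype alike. Its log2 fold change of −0.18 (SE 0.22, adjusted p = 0.667) was the closest to 0 of the 9.

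Without both Taz-KO libraries with few barcodes, none of the 9 genes was called in cardiomyocytes by edgeR, where 10.3% of all genes tested were. Unadjusted, 5 of the 9 were below 0.05 in that setting, against 4824 of 19311 genes tested. Each other alternative gave between 1 and 4 called members. DESeq2 called 4, the additional gene being Acot1. With each nucleus typed by its own UMIs of a marker pair (Ryr2 and Ttn for cardiomyocytes) in place of clusters, 1 member was called, Mlycd.

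The marker genes of other cell types were summed in the cardiomyocyte nuclei, and 5 of 12 such lists did not overlap between genotypes. Of single genes tested, 7.54% had every Taz-KO mouse below every WT mouse, and no such share was computed for lists. The adipocyte list was at 497 to 726 CPM in WT and 285 to 373 CPM in Taz-KO mice, and it contains Acsl1, itself a PPAR-alpha target that heart muscle uses. Acsl1 alone was at 410 to 647 CPM in WT and 179 to 272 CPM in Taz-KO cardiomyocytes. Pparg, also in the list, had means of 72.8 CPM in WT and 85.5 CPM in Taz-KO cardiomyocytes. The defining adipocyte gene Adipoq was at 0.439 to 3.51 CPM in WT and 0 to 1.72 CPM in Taz-KO cardiomyocytes, against 49.4 to 319 CPM in WT adipocytes. Plin1, which coats the droplets of adipocytes and is also defining, was at 0.61 to 2.76 CPM in WT and 1.56 to 3.83 CPM in Taz-KO cardiomyocytes, against 251 to 692 CPM in WT adipocytes. The pericyte, B lymphocyte and T lymphocyte lists were also lower in each Taz-KO mouse, and the smooth muscle list was higher, at 64.4 to 244 CPM against 18.6 to 62.2 CPM. Their part in the differences of the 9 genes was not tested.

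The genotype difference was of the same sign in each of the 4 clusters of cardiomyocyte nuclei for the 3 genes called. Mean Ucp3 was 95.2 CPM in WT and 31.9 CPM in Taz-KO mice in the largest cluster, of 16142 nuclei, and 71.8 and 21.0 CPM in the cluster of 3422 nuclei, of which 79.7% came from Taz-KO mice. In the same clusters, mean Mlycd was 45.2 and 21.8 CPM, then 39.2 and 20.7 CPM, and mean Acacb was 594 and 370 CPM, then 488 and 315 CPM. The cluster with atrial markers, of 1117 nuclei, had the lowest WT means of these genes, with Ucp3 at 31.7 CPM in WT and 12.1 CPM in the 3 Taz-KO mice that had at least 10 such nuclei and Acacb at 279 and 253 CPM. The groups overlapped in the atrial cluster for Ucp3, Mlycd and Acacb. In the remaining cluster, of 6139 nuclei, WT and Taz-KO means were 88.0 and 22.3 CPM for Ucp3, 45.7 and 27.4 CPM for Mlycd and 509 and 288 CPM for Acacb. There the groups overlapped for Ucp3 and Mlycd, and in the largest cluster they overlapped for Ucp3. In the largest cluster alone, which was chosen after seeing the data, edgeR's test called Mlycd, while Ucp3 and Acacb had adjusted p of 0.0811 and 0.0562.

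To see in how many nuclei a gene was counted, each cardiomyocyte nucleus of at least 1000 UMIs was thinned to 1000 UMIs, which kept 164 of 165 nuclei of Taz-KO replicate 4685, 895 of 962 of Taz-KO replicate 5301 and all of the other mice. Ucp3 then had a UMI in 8.05 ± 4.57% of WT and 2.31 ± 1.35% of Taz-KO cardiomyocyte nuclei, Mlycd in 4.58 ± 1.36% and 2.09 ± 0.80%, and Acacb in 41.3 ± 3.75% and 28.0 ± 2.93% (SD, n = 4 each). For these 3 of the 9 genes every Taz-KO mouse was below every WT mouse, as was so for 5.04% of all genes tested, with p = 0.0286 for each in the exact two-sided permutation test over the mice, unadjusted and the smallest that 4 against 4 allows. Thinning is a random draw and was not repeated, and some margins were small. The lowest WT and highest Taz-KO mouse were at 4.04% and 3.75% for Ucp3 and at 2.93% and 2.61% for Mlycd. The Mlycd share of Taz-KO replicate 4685 rests on 4 of 164 nuclei. Without thinning, the groups overlapped for all 3 genes, with p = 0.0571 each in the same exact test. The shares were then 48.5% and 21.8% for Ucp3, 36.8% and 22.8% for Mlycd and 94.3% and 83.0% for Acacb. The unthinned share of Acot1 did not overlap, at 2.96% to 8.91% in WT and 0.83% to 2.42% in Taz-KO mice (unadjusted p = 0.0286, same test). The share of all genes with such a separation without thinning was not computed. The median depth of a mouse ran from 6502 to 22365 UMIs in cardiomyocytes and from 2776 to 6461 UMIs in fibroblasts. In fibroblasts, which are not known to use Ucp3, thinned nuclei had a UMI of it in 1.03% and 0.51%, and the corresponding shares were 2.63% and 2.47% for Mlycd and 8.08% and 5.89% for Acacb. The share of Mlycd in Taz-KO cardiomyocytes was thus no higher than in fibroblasts, and whether fibroblasts use the gene was not tested. Pdk4 had a UMI in 22.1 ± 20.5% of WT and 8.38 ± 4.52% of Taz-KO cardiomyocyte nuclei (p = 0.371, exact permutation test), against 7.34% and 6.14% of fibroblast nuclei.

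**Figure D2:**
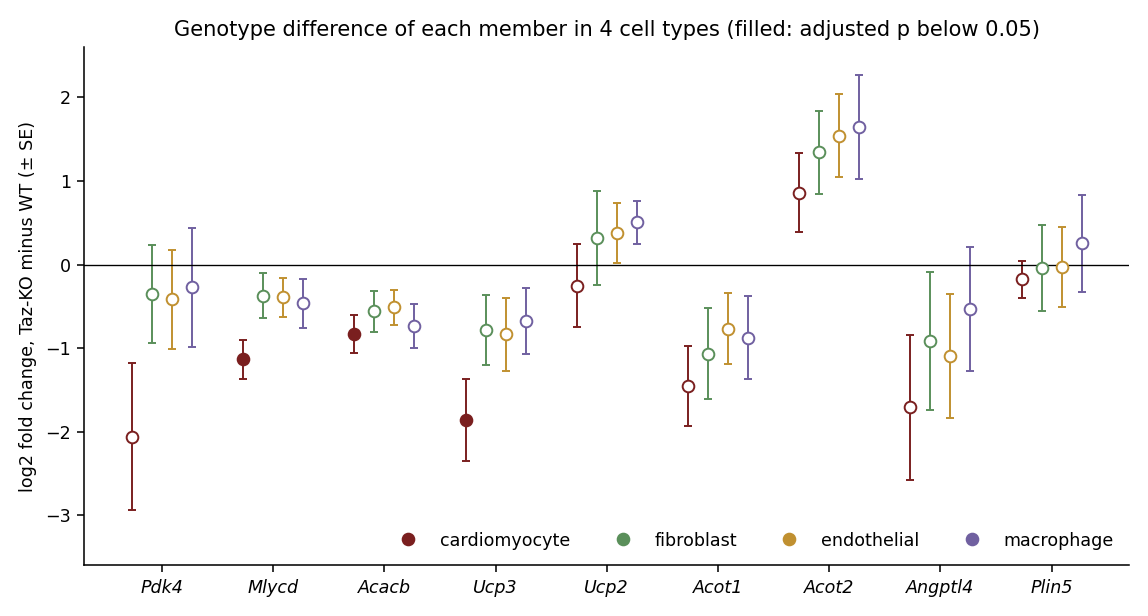
Log2 fold change (Taz-KO minus WT, edgeR) of each of the 9 genes in 4 cell types, with bars of 1 SE and filled points for an adjusted p below 0.05. The filled points are Mlycd, Acacb and Ucp3 in cardiomyocytes, and Acot2 lies above 0 in all 4 cell types.

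Outside cardiomyocytes, edgeR called none of the 9 genes in fibroblasts, endothelial cells or macrophages, where 0.405%, 0.448% and 0.27% of all genes tested were called. The lowest adjusted p of a member was 0.396, 0.371 and 0.668. In each of these cell types 2 of the 9 genes, Acot2 and Acacb, had an unadjusted p below 0.05, against 1740 of 17774, 1269 of 16080 and 856 of 14049 genes tested, and DESeq2 called 0 of the 9 in each. Mean Acacb was 78.3, 120.4 and 90.3 CPM in WT and 55.2, 88.2 and 54.8 CPM in Taz-KO fibroblasts, endothelial cells and macrophages. Every Taz-KO mouse was below every WT mouse for Acacb in endothelial cells, macrophages and lymphatic endothelial cells. Its adjusted p in edgeR's test was 0.568, 0.668 and 0.639 there, and the share of all genes with such a separation was not computed. Whether the genotype effect differed between cardiomyocytes and each of these cell types was tested as an interaction with the mouse as a block. None of the 9 genes passed in any of the 3 comparisons, which share the cardiomyocyte values, where 4.64%, 2.31% and 1.17% of all genes did. The estimates of all 9 were more negative in cardiomyocytes, but the median over all genes tested was also negative, at −0.11, −0.0094 and −0.094, and the signs for Plin5, Acot1 and Acacb turned in some comparisons under other settings. For Mlycd the difference of log2 fold changes from cardiomyocytes to endothelial cells was −0.65 (SE 0.22, adjusted p = 0.18), and for Ucp3 that to macrophages was −0.91 (SE 0.41, adjusted p = 0.376). Unadjusted, 4, 2 and 1 of the 9 genes were below 0.05, against 3853 of 19678, 2638 of 17671 and 2171 of 16493 genes tested, and DESeq2 called 0 in each.

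Acot2 had a positive estimate in each of the 9 cell types tested. In endothelial cells the WT hearts gave 15.6, 26.7, 25.2 and 8.96 CPM, and the Taz-KO hearts gave 74.2, 67.4, 75.0 and 10.4 CPM, again with Taz-KO replicate 5301 apart from the rest of its group. The log2 fold change was 1.34 (SE 0.50) in fibroblasts, 1.54 (SE 0.50) in endothelial cells and 1.65 (SE 0.62) in macrophages, with adjusted p of 0.396, 0.371 and 0.686. Without Taz-KO replicate 5301 it was 1.62, 1.83 and 2.0, and it passed the test in endothelial cells (adjusted p = 0.0316) and macrophages (0.0198) but not in fibroblasts (0.100). In that setting 0.994% and 0.866% of all genes tested were called in endothelial cells and macrophages, against 0.448% and 0.27% with all mice. Taz-KO replicate 5301 had the lowest share of mitochondrial UMIs of all libraries, 1.57%, and the fewest UMIs.

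As a measure of RNA that many droplets share, the 9 genes were also summed over the tenth of each library's barcodes that had the fewest UMIs, which may hold nuclei as well as free RNA. The fewest UMIs of any deposited barcode were 500 in Taz-KO replicates 4685 and 5301 and 2165 to 6522 in the other libraries. How much of the RNA in these barcodes was free is thus not known. Acot2 was at 15.9 to 43.4 CPM in these barcodes of WT and 40.4 to 107 CPM in those of Taz-KO mice, and in cardiomyocytes, fibroblasts, endothelial cells and macrophages alike it was below them in 8 of 8 mice. Its higher level in 3 of the 4 Taz-KO mice thus stands beside an even higher level in these barcodes, and the part of free RNA in it was not tested. Ucp3 and Acacb were above these barcodes in cardiomyocytes of 8 of 8 mice, with a median ratio of 3.27 and 3.49. Pdk4 and Mlycd were above them in 3 of 8 mice, Acot1 and Plin5 in 1, and Ucp2 and Angptl4 in 0. In the other 3 cell types, members were above them in 0 or 1 of 8 mice, other than Ucp2 in macrophages, which was above in 7 of 8. By genotype, these barcodes held Ucp3 at means of 21.5 CPM in WT and 10.2 CPM in Taz-KO mice. Mlycd was at 37.4 and 28.3 CPM and Acacb at 152 and 131 CPM in them, with overlapping ranges for each of these genes.

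**Figure D3:**
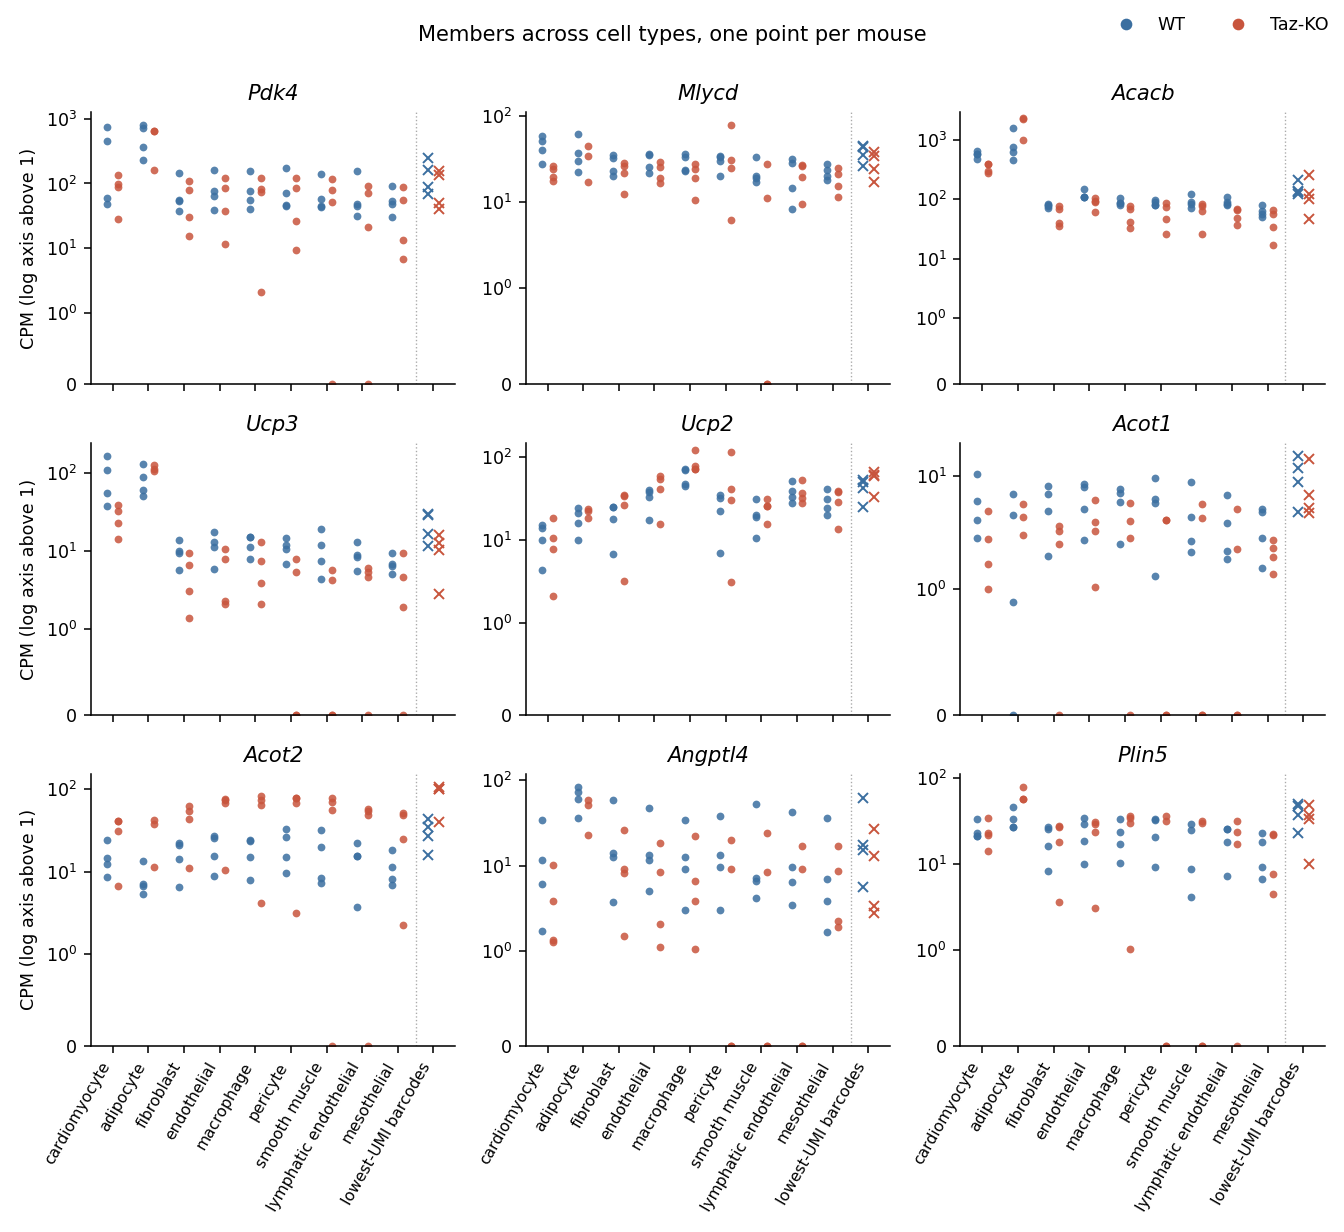
Level of the 9 genes in each named cell type and, to the right of the dotted line, in the barcodes with the fewest UMIs. The y axis is CPM on a log axis above 1 CPM and linear below, and each point is a mouse with at least 10 nuclei of the type (blue, WT; red, Taz-KO; crosses, barcodes with the fewest UMIs). Over both genotypes, Acacb, Ucp3 and Pdk4 reach their highest means in adipocytes and then cardiomyocytes, an order that is reversed for Ucp3 in WT mice, and Ucp2 is highest in macrophages.

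Across cell types, over the mice of both genotypes, Acacb was highest in adipocytes, at a mean of 1279 ± 762 CPM (SD, 7 mice), and next in cardiomyocytes, at 455 ± 136 CPM (8 mice). All other named types were between 53.5 and 120 CPM. The range of Acacb in adipocytes, from 455 to 2317 CPM, overlapped that in cardiomyocytes, from 279 to 639 CPM, and the latter lay wholly above the range in endothelial cells, from 61.9 to 150 CPM. Ucp3 was at 96.4 ± 30.9 CPM in adipocytes and 59.0 ± 51.8 CPM in cardiomyocytes, whose ranges overlapped, but this order rested on the Taz-KO mice. In WT mice Ucp3 was at 91.3 ± 58.0 CPM in cardiomyocytes and 82.9 ± 35.6 CPM in adipocytes, and in Taz-KO mice at 26.7 ± 10.5 and 114 ± 10.0 CPM. It was at 5.41 to 9.39 CPM in fibroblasts, endothelial cells, macrophages, pericytes, smooth muscle, lymphatic endothelial and mesothelial cells of all mice. Pdk4 was at 511 ± 255 CPM in adipocytes and 208 ± 259 CPM in cardiomyocytes, and at 48.3 to 93.6 CPM elsewhere. Angptl4 and Plin5 were also highest in adipocytes, at 55.3 ± 20.9 and 46.8 ± 19.4 CPM.

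Ucp2 had another order, with 72.4 ± 23.8 CPM in macrophages, 29.5 to 38.1 CPM in endothelial, lymphatic endothelial, glial and mesothelial cells and pericytes, and its lowest mean of 10.4 ± 5.60 CPM in cardiomyocytes. In macrophages of WT hearts it was counted at 70.2, 47.2, 71.9 and 44.7 CPM, and in those of Taz-KO hearts at 72.6, 72.3, 78.0 and 123 CPM. Every Taz-KO mouse was above every WT mouse, by small margins other than in Taz-KO replicate 5301, which was so for 2.16% of all genes tested in macrophages, and edgeR's adjusted p was 0.948 (log2 fold change 0.50, SE 0.26). Over both genotypes, the means of Acot1, Acot2 and Mlycd ran from 2.75 to 7.16, 17.7 to 38.9 and 16.0 to 35.2 CPM between cell types. In WT mice alone, Mlycd was at 44.6 CPM in cardiomyocytes, 37.5 CPM in adipocytes and 20.7 to 29.5 CPM in the other types.

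Adipocytes were few, 794 nuclei, and Taz-KO replicate 4685 had 6 of them and was left out, so that 4 WT and 3 Taz-KO mice were compared. Of the 8 members tested there, Acot2 was called, at 7.18, 13.4, 5.40 and 6.78 CPM in WT hearts and 38.1, 41.7 and 11.4 CPM in Taz-KO replicates 4910, 5300 and 5301. The log2 fold change was 2.09 (SE 0.40, adjusted p = 0.0374), and 1.47% of all genes tested in adipocytes were called. This count of 162 genes was 1 without WT replicates 4909 or 5355 or Taz-KO replicate 5300, 22 without WT replicate 4686, 10 without Taz-KO replicate 4910, 383 without WT replicate 5356 and 834 without Taz-KO replicate 5301. The call was lost without WT replicates 4686, 4909 or 5355 or Taz-KO replicates 4910 or 5300 (adjusted p = 0.0888, 0.0738, 0.131, 0.195 and 0.238). With an ambient share subtracted, Acot2 did not pass the filter on low counts in adipocytes, and edgeR called 0 genes there, with 1805 at an unadjusted p below 0.05. The groups overlapped, since Taz-KO replicate 5301 was below WT replicate 4909. Acacb was at 1593, 627, 769 and 455 CPM in adipocytes of the WT hearts and at 2206, 2317 and 988 CPM in those of the Taz-KO mice. This is the opposite direction to that in cardiomyocytes, but the log2 fold change of 1.14 (SE 0.42) did not pass the test (adjusted p = 0.166), and the difference between these cell types was not tested. Plin5 was at 26.9, 46.5, 33.3 and 27.1 CPM and at 56.9, 57.6 and 79.5 CPM, without overlap, which was so for 5.44% of all genes tested in adipocytes, and with an adjusted p of 0.107.

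In the remaining types, edgeR and DESeq2 called 0 of 9 members in pericytes, 0 of 6 tested in smooth muscle cells, 0 of 7 in lymphatic endothelial cells and 0 of 8 in mesothelial cells, where 0.133%, 0.0592%, 0.106% and 0.0568% of all genes tested were called. Unadjusted, 2, 1, 2 and 1 members were below 0.05, against 609 of 12770, 327 of 8442, 596 of 11319 and 908 of 12319 genes tested. The log2 fold change of Acot2 was 1.43, 1.64, 1.63 and 1.63 in these types, and without Taz-KO replicate 5301 it passed in pericytes (adjusted p = 0.0396), smooth muscle cells (0.0373) and mesothelial cells (0.0384). In that setting 0.525%, 0.436% and 0.255% of all genes tested were called in pericytes, smooth muscle cells and mesothelial cells. These shares are higher than the 0.133%, 0.0592% and 0.0568% with all mice. The 17 genes called in pericytes with all mice became 2 to 69 without each mouse in turn.

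Other genes of the same pathway were followed in cardiomyocytes as lists, by counts and medians. The lists share some genes, so their counts are not separate. Cpt1a, Lpl and Acot3 are each counted as lower both among the other PPAR-alpha targets and in a later list. Of 40 other PPAR-alpha target genes, 35 were tested, and 18 were lower and 1 was higher in Taz-KO mice, with a median log2 fold change of −0.87. This is 54.3% of the list against 15.9% of all genes tested, and a large part of the list, like Mlycd, belongs to fatty acid oxidation. The list was chosen with earlier results of these data known, so this excess is in part not independent of them. Without both Taz-KO libraries with few barcodes, 8 of the list were lower, as were 3.92% of all genes tested then, against 6.87% with all mice. Acaa2, which cuts the chain in the last step of mitochondrial beta-oxidation, was at 127 to 233 CPM in WT and 29.4 to 85.5 CPM in Taz-KO mice, a log2 fold change of −1.84 (SE 0.31, adjusted p = 0.00237). Ehhadh, an enzyme of peroxisomal beta-oxidation, was at 18.1 to 41.9 and 6.14 to 13 CPM, also −1.84 (SE 0.33, adjusted p = 0.00400). Acot3, a neighbour of the same thioesterase family as Acot1, was barely counted, with 12, 33, 26 and 30 UMIs in the WT mice and 0, 7, 9 and 0 UMIs in the Taz-KO mice. The gene called higher was Fgf21, a secreted hormone of fasting and mitochondrial stress, with 0, 2, 1 and 0 UMIs in the WT mice and 19, 390, 287 and 8 UMIs in the Taz-KO mice.

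**Figure D4:**
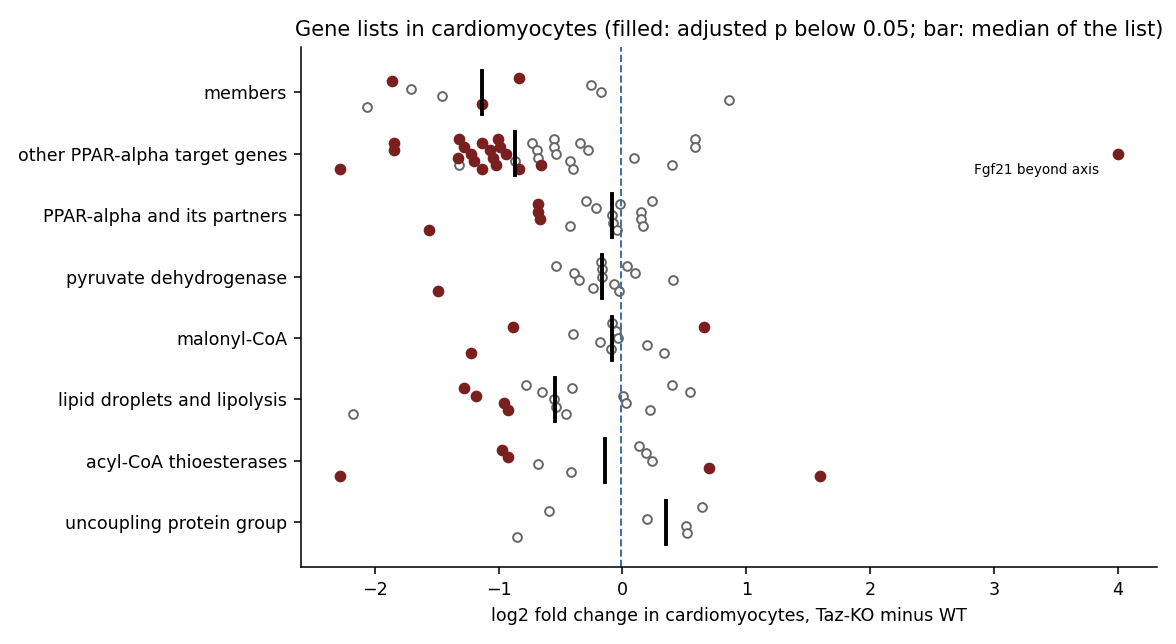
Log2 fold change in cardiomyocytes (Taz-KO minus WT, edgeR) of the genes of each list, with a point for each gene tested, filled where the adjusted p was below 0.05, a black bar at the median of the list and a dashed line at the median of all genes tested. Most of the other PPAR-alpha target genes lie left of 0, and Fgf21 lies beyond the axis.

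Of 15 genes of PPAR-alpha and its partners, 4 were lower and 0 higher, 26.7% against 15.9% of all genes tested. They were Lpin1, a coactivator and phosphatidate phosphatase (−1.56, SE 0.24, adjusted p = 0.00146), the retinoid X receptors Rxra (−0.68) and Rxrg (−0.66), and the corepressor Nrip1 (−0.68). The median was −0.08, and without both Taz-KO libraries with few barcodes the call of Rxrg was lost (adjusted p = 0.0648). Ppara itself had means of 385 CPM in WT and 479 CPM in Taz-KO cardiomyocytes, with a log2 fold change of 0.24 (SE 0.29, adjusted p = 0.647). In fibroblasts and macrophages, edgeR called 0 of 34 and 0 of 32 tested genes of the list of other PPAR-alpha targets, with 5 and 3 at an unadjusted p below 0.05, and in endothelial cells 0 lower and 1 higher of 33. Of all genes tested, 0.405%, 0.27% and 0.448% were called in these cell types.

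Around Pdk4, 1 of 13 genes of the pyruvate dehydrogenase complex and its regulators was lower and 0 higher, or 7.69% against 15.9% of all genes tested, which is no more than the background. The gene was the phosphatase gene Pdp2 (−1.49, SE 0.21, adjusted p = 0.000807), whose product acts against that of Pdk4. Around Acacb and Mlycd, 2 of 11 genes were lower and 1 was higher, 27.3% against 15.9% of all genes tested. Cpt1a, the malonyl-CoA-sensitive gate of the mitochondrion, had a log2 fold change of −1.22 (SE 0.29, adjusted p = 0.0163) and Prkab1, a subunit of AMP-activated kinase, of −0.89, while the alternative subunit Prkab2 had 0.65. Without both Taz-KO libraries with few barcodes, the calls of Cpt1a, Prkab1 and Prkab2 were lost, with adjusted p of 0.0587, 0.0867 and 0.120. Of 17 genes of lipid droplets and lipolysis, 16 were tested and 4 were lower, namely Lpl (−1.28), Lipe (−1.18), Plin3 (−0.95) and Mgll (−0.92), or 25% against 15.9% of all genes tested, with a median of −0.54. Without both libraries Lpl kept its call, and Lipe, Plin3 and Mgll had adjusted p of 0.130, 0.0984 and 0.0798. Lpl is the lipase that Angptl4 inhibits, and Lipe and Mgll are lipases of stored fat.

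Of 12 acyl-CoA thioesterases other than Acot1 and Acot2, 10 were tested, with 3 lower and 2 higher, or 50% against 15.9% of all genes tested. Acot7 (−0.97) and Acot11 (−0.92) were lower, as was Acot3 in the UMIs above, whose call was lost without both Taz-KO libraries with few barcodes (adjusted p = 0.0662), and Acot12 (1.59) was higher at a low level of 0.58 and 1.88 CPM. Them4 (0.69) was higher and is named after its value was seen. None of 6 carriers of the uncoupling protein group was called by edgeR, where 3 were at an unadjusted p below 0.05, against 5334 of 18226 genes tested.

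The genes most like each member were found by Pearson's r of log2(CPM + 1) over the 8 mice in cardiomyocytes, among 9049 genes with a mean of at least 10 CPM, as a description over mice that share genotype, depth and free RNA. Ucp3 was most like Etfdh (0.981), an electron carrier enzyme of beta-oxidation, then Lipe (0.973) and Hsdl2 (0.973). Mlycd was most like Ephx2 (0.993), Ttc7 (0.987) and Etfdh (0.984), and Acacb was most like Slc25a34 (0.978), Ktn1 (0.972) and Hlcs (0.961), the last of which attaches biotin to carboxylases. Pdk4 was most like Rnf10 (0.969), and Acot2 like Gm15417 (0.968). Among the members, Mlycd and Ucp3 were most alike, at 0.962, followed by Angptl4 and Ucp3 at 0.873 and by Angptl4 and Mlycd at 0.839. Over the 32 values of 8 mice in 4 cell types, Ucp3 was most like Slc27a1 (0.944), Mlycd like Hadha (0.852), Acot1 like Lpl (0.931), Plin5 like Nkx2-5 (0.971), Acacb like Mettl24 (0.974), Pdk4 like Mlycd (0.818), Ucp2 like Ctsh (0.975), Acot2 like Ghitm (0.944) and Angptl4 like Spon2 (0.792).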

How the data were processed

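Nuclei of cryopreserved hearts were sequenced with the 10x 3′ v3.1 kit. The deposited values are UMI counts as Cell Ranger 6.0.1 gives them for each barcode, on mm10 and with intron reads; the authors' corrections for ambient RNA and doublets are not in them. The 9 genes and the lists were chosen with earlier results of these data known.

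The filter of 800 UMIs and 250 genes, counted without the mitochondrial genome, left 167495 barcodes. Doublets were scored per mouse against artificial doublets, and 16231 were removed, at most 10% of the barcodes of a mouse. Counts were normalized, 15 principal components of 2000 variable genes were corrected for the mouse by the Harmony algorithm, written anew, and a graph of 20 neighbours was clustered with Leiden (resolution 0.9) (python-igraph 0.11.9, scikit-learn 1.9.0, scipy 1.17.1 and numpy 2.4.6 under Python 3.11.15). Of 36 clusters, 16 were named where markers of a cell type led them and no other type's markers were in excess, and this rule was set after marker scores were seen.

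For each mouse, counts were added up over the nuclei of a cell type (at least 10), and edgeR 4.0.16 (R 4.3.3) was run on the sums (TMM, filterByExpr, robust quasi-likelihood F test, Benjamini-Hochberg over all genes tested). The SE is the log2 fold change over the square root of F. DESeq2 1.42.0 was the other tool. Shares of nuclei were compared by exact permutation tests. In data simulated from these mice, 35% of 2-fold and 84% of 4-fold changes in cardiomyocytes were recovered over 18009 genes, 23% and 82% in fibroblasts over 17500 genes, and 3% and 52% of differences between these types over 16969 genes. Only 100 genes were changed at each fold, far fewer than were called in cardiomyocytes, and the cell types of a mouse were drawn independently. The rates may thus differ from those of the tests on the real data.

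The alternatives were RLE normalization, no filter on low counts, DESeq2, leaving out each mouse or both Taz-KO libraries with few barcodes, subtraction of an ambient share of 0.2, doublets kept, nuclei typed by their own marker pair, resolution 0.5, at least 1500 UMIs, no atrial cluster, Acot1 and Acot2 summed and nuclei not thinned. Mixed clusters kept and only the largest cardiomyocyte cluster were added after seeing the data. The 9 genes are named in every cell type, and of each list at most the 4 called genes with the largest change. Positions are from GENCODE vM21 and promoters from RefSeq.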

Additional observations from a re-analysis of the deposited data

Results flagged for a closer look

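In 6 of 72 groups of 4 mice (9 genes, 4 cell types and 2 genotypes), the highest or the lowest mouse stood further from the other 3 than Dixon's criterion at the 95% level allows, and chance alone marks about 1 in 20 groups. Plin5 in cardiomyocytes of WT replicate 5355 was at 33.5 CPM, against 21.0 to 22.8 CPM in the other WT mice. Pdk4 in fibroblasts of the same mouse was at 144 CPM, against 38.0 to 54.7 CPM, and this mouse also had the highest Pdk4 in cardiomyocytes. Acacb in endothelial cells of WT replicate 5356 was at 149.8 CPM, against 110 to 111 CPM. The other 3 values were of Taz-KO replicate 5301, the library with the fewest UMIs. Acot2 in its endothelial cells was at 10.4 CPM, against 67.4 to 75.0 CPM in the other Taz-KO mice, Ucp2 in its macrophages was at 123 CPM, against 72.3 to 78.0 CPM, and Plin5 in its macrophages was at 1.05 CPM, against 30.5 to 36.3 CPM. What sets these libraries apart was not tested.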

How the results depend on the processing

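No paired analysis was possible because the mouse numbers are not shared between the genotypes. Of the 9 genes in cardiomyocytes, Mlycd kept its call in 19, Acacb in 12 and Ucp3 in 11 of 20 alternatives, with the sign unchanged in all 20. The number of members called in cardiomyocytes was 3, and it was 0 without both Taz-KO libraries with few barcodes, 1 with nuclei typed by their own marker pair, 1 in the largest cluster only and between 1 and 4 without each mouse in turn. Genes called in cardiomyocytes numbered 2891, and 1865 in the largest cluster only. The sign of 2 members changed there, Ucp2, which was never called, and Acot1, which was called in 3 of 21 alternatives. For Ucp2 the log2 fold change was 0.22 without both libraries and −0.66 to 0.058 without each mouse. For Acot1 it was 0.50 with Acot2 summed in, where the added UMIs are mostly those of Acot2. The share of nuclei with a UMI of Ucp2 differed by −1.16 percentage points without thinning (0.09 with it) and by −0.14 to 0.37 without each mouse, and that of Plin5 by 0.10 without both libraries.

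Of the lists in cardiomyocytes, without both libraries 8 other PPAR-alpha targets, 0 genes of malonyl-CoA and 1 of lipid droplets were lower, and with ambient RNA subtracted 2 of lipid droplets were. In the largest cluster only, 2 of PPAR-alpha and its partners and 1 thioesterase were lower. Without each mouse, 2 to 4 of the partners, 1 to 2 around pyruvate dehydrogenase, 1 to 2 of malonyl-CoA and 0 to 1 of the uncoupling protein group were lower.

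In other cell types, where few genes were called, the counts moved with most settings. In fibroblasts (72 genes called) they were 361 with DESeq2, 116 without both libraries, 0 with ambient RNA subtracted and 8 to 152 without each mouse. In endothelial cells (72) they were 126 with no filter, 290 with DESeq2, 122 without both libraries, 9 with ambient RNA subtracted, 114 by marker pair and 15 to 163 without each mouse. In macrophages (38) they were 99 with no filter, 133 with DESeq2, 105 without both libraries, 0 with ambient RNA subtracted, 65 with doublets kept, 277 by marker pair and 2 to 126 without each mouse. Members called were 1 in macrophages without both libraries, 1 in smooth muscle cells with no filter, 0 in adipocytes with ambient RNA subtracted, and 0 to 1 without each mouse in endothelial cells, macrophages, pericytes, smooth muscle cells, mesothelial cells and adipocytes, the gene being Acot2 each time.

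The log2 fold change of Pdk4 was 0.31, 0.22 and 0.23 without both libraries in fibroblasts, endothelial cells and macrophages, and −0.78 to 0.22, −0.89 to 0.065 and −0.67 to 0.22 without each mouse. That of Plin5 was 0.41 in fibroblasts and 0.30 in endothelial cells without both libraries, 0.12 and 0.080 with ambient RNA subtracted, 0.028 in fibroblasts with doublets kept, 0.028 in endothelial cells by marker pair, and −0.29 to 0.25 and −0.27 to 0.22 without each mouse. That of Angptl4 was −1.72 to 0.17 in fibroblasts and −1.58 to 0.25 in macrophages without each mouse.

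For the difference from cardiomyocytes to fibroblasts, 914 genes were called, and 1639 with DESeq2, 169 with ambient RNA subtracted, 606 by marker pair, 449 in the largest cluster only and 462 to 990 without each mouse. To endothelial cells there were 408, and 790 with DESeq2, 21 with ambient RNA subtracted, 217 in the largest cluster only and 161 to 727 without each mouse. To macrophages there were 193, and 510 with no filter, 431 with DESeq2, 504 without both libraries, 0 with ambient RNA subtracted, 402 with doublets kept, 678 by marker pair, 409 with mixed clusters kept, 111 in the largest cluster only and 98 to 544 without each mouse, and 1 member, Acot2, was called by marker pair. The difference for Acot1 to fibroblasts was 0.36 by marker pair and that to macrophages −1.10 to 0.041 without each mouse. For Acacb it was 0.10 and 0.30 to fibroblasts and macrophages with ambient RNA subtracted, and −0.31 to 0.23 to macrophages without each mouse. For Plin5 it was −0.56 to 0.12 to fibroblasts and −0.50 to 0.034 to endothelial cells without each mouse. The cause of these changes was not tested.

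Smooth muscle cells were not named at resolution 0.5 and gave no value there. An ambient share of 0.2 is an assumption. With 4 mice a group, 2-fold changes were seldom recovered in simulated data, and intervals over mice are wide for Pdk4 and Angptl4. Taz-KO replicate 4685 gave 165 cardiomyocyte nuclei, and its values rest on few UMIs.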
